A study of Mus musculus with 12 samples.

Results

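Rab GTPases, Vps proteins and sorting nexins are the machinery that buds, moves, tethers and sorts the vesicles of the endosomal and lysosomal system. Members were chosen by gene symbol alone, as Rab, Vps or Snx followed by a number, and 120 of the 47632 genes of the deposited tables matched (59 *Rab*, 31 *Vps* and 30 *Snx* genes). Their mRNA levels were compared in colonic epithelial cells of *Tfeb* flox/flox animals and of *Tfeb* ΔIEC animals, which carry the same floxed alleles plus one copy of a Cre transgene driven by the villin promoter, so that *Tfeb* is deleted in intestinal epithelium and not in other cells. The mice were of the C57/BL6 strain, and 2 animals of each genotype were used on Day 0 (before dextran sodium sulfate, DSS, a polymer that injures the colonic epithelium), on Day 4 (during DSS) and on Day 11 (after recovery), 12 in all. By the labels the animals were 10 and 12 weeks old on Day 0, 12 weeks on Day 4 and 10 weeks on Day 11, so day and age cannot be fully told apart. The labels give DSS at 2.5%, the study's methods a lower concentration. The flox/flox controls lack Cre, so an effect of Cre itself cannot be told apart from the loss of *Tfeb*.

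Rab proteins are small GTPases that mark each kind of vesicle and recruit its motors and tethers. Vps proteins were named from yeast mutants that failed to sort proteins to the vacuole, and most are subunits of complexes: retromer retrieves receptors from endosomes, HOPS and CORVET tether late and early endosomes, ESCRT folds cargo into the endosome lumen, and GARP tethers vesicles that return to the Golgi. Sorting nexins carry a PX domain that binds endosomal lipid, and several bend the membrane together with retromer. TFEB is a transcription factor that activates lysosome and autophagy genes in many cell types through the E-box letters CACGTG. In colonic epithelium this machinery carries transporters and junction proteins to and from the cell surface.

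For every gene and genotype a table gives 1 FPKM value (sequenced fragments relative to transcript length and library size), in which the authors combined both animals. No spread between animals can be had from these values, so no difference below has a test or a replicate check, and every fold change is a description of pooled libraries. Differences are given as log2((ΔIEC + 1)/(flox/flox + 1)) for genes with at least 1 FPKM in either genotype on that day, and a gene is called past 4-fold where this value is 2 or more in size. This scale understates the difference of low genes, and a fold given without "log2" is the plain ratio of the FPKM values. In bulk RNA, fewer cells of a type and less RNA per cell cannot be told apart. *Tfeb* itself was listed at 0.901 FPKM in flox/flox and 0.185 in ΔIEC cells on Day 0. It was at 1.08 and 1.18 FPKM in flox/flox cells on Days 4 and 11, and at 0 in ΔIEC cells on both days.

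The values of Days 4 and 11 are close to each other. Of the 89 members above 0 in both flox/flox values, 12 had the identical FPKM on the 2 days and 74 lay within 1.2-fold. In ΔIEC cells 4 of 96 members were identical and 90 lay within 1.2-fold. This holds for the tables as a whole, in which 14.3% of all genes were identical in flox/flox and 10.2% in ΔIEC cells, whereas no member was identical between Day 0 and Day 4 in either genotype. Day 11 is therefore not counted as separate evidence, and its values are given beside those of Day 4. The FPKM of all genes summed to 1464717 in flox/flox and 820344 in ΔIEC cells on Day 4, against 975316 and 973878 on Day 0. The label of epithelial cells was borne out by 8 epithelial markers, which summed to between 9491 and 20601 FPKM in the 6 groups. That sum is mostly *Lgals4*, at 16806 FPKM in flox/flox and 9196 in ΔIEC cells on Day 4. The markers did not move together on Day 4: *Cdh1* was at 24.5 and 164 FPKM, *Vil1* at 30.6 and 224 and *Krt20* at 101 and 931. In flox/flox cells these 3 were lower than on Day 0 (38.5, 85.4 and 168). *Krt18*, *Epcam* and *Cdx2* had Day 4 log2 fold changes of 0.24, 0.58 and 0.56, and *Krt8* and *Lgals4* of −0.33 and −0.87. The 4 colonocyte markers summed to 25036 and 27101 FPKM on Day 4, mostly *Car1*, with *Slc26a3* at 33.3 and 271, *Aqp8* at 25.3 and 69.3, and *Car4* at 232 and 147. The part of cell makeup in the members' differences was not tested. Immune markers summed to at most 3.94 FPKM, with *Itgam* at or near 0 throughout, and stromal markers to at most 0.935, with *Des*, *Pdgfra* and *Col1a2* at 0. The 3 goblet cell markers summed to 30983 FPKM in flox/flox and 4205 in ΔIEC cells on Day 4, against 5427 and 4020 on Day 0. They did not move together: on Day 4 *Tff3* made up 28759 FPKM of the flox/flox sum and was at 2166 in ΔIEC cells, *Fcgbp* was at 1579 and 145, and *Muc2* was at 645 and 1894. The part of goblet cells in the differences described here was not tested.

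On Day 4, *Rab18*, *Vps35*, *Vps26a*, *Rab1a*, *Vps4b*, *Snx14*, *Rab8a* and *Vps39* were past 4-fold higher in ΔIEC cells, and *Vps36* and *Vps72* were past 4-fold lower. These 8 higher members were 10.4% of the 77 members that passed the filter, against 7.36% of all 9371 genes, a share near the background. The 2 lower members compare with 10.3% of all genes past 4-fold lower. The middle of the group was shifted: the median log2 fold change of the members was 0.77, against 0.06 for all genes. Of the 77 values, 58 were above 0, against 4808 of all 9371 genes and 133 of 214 other vesicle genes, a comparison set described further on. At 2-fold, 32 members were higher (25.6% of all genes were) and 6 lower (26.1% of all genes were). Of the 77 members, 26 reached 1 FPKM in 1 genotype only, a share near that of all genes (3311 of 9371), so these counts partly reflect the filter. A filter chosen after the data were seen kept the 67 members whose mean of the 6 values was at least 1 FPKM. Of these, 8 were past 4-fold higher (11.9%, against 8.0% of 8616 genes) and 2 lower (11.2% of genes were). Their median was 0.77, against 0.04. A gene high in 1 genotype alone can pass this filter too: *Rab13*, at 0 in flox/flox cells on all 3 days, had a mean of 1.11.

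On Day 0, before DSS, the shift was smaller. *Vps39* and *Vps72* were past 4-fold higher among 74 members (2.09% of all genes were), and no member was past 4-fold lower (3.35% of all genes were). At 2-fold, 14 members were higher (13.5% of all genes) and 2 lower (16.1% of all genes). The median was 0.36, against 0.06 for all genes. On Day 11, 11 of 76 members were past 4-fold higher (7.46% of all genes) and 2 lower (10.2% of all genes), and 34 and 6 were past 2-fold (26.1% and 25.7% of all genes). *Rab7*, *Vps4a* and *Vps37b* joined the Day 4 set, at log2 fold changes of 1.93, 1.97 and 1.95 on Day 4 and 2.61, 2.36 and 2.20 on Day 11. All 3 thus stood just under the line on Day 4. *Rab7* moved most, its plain ratio being 4.33 on Day 4 and 8.16 on Day 11.

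How many members lie past the line depends on the scale. When each genotype was divided by its summed FPKM, the median of all genes on Day 4 moved to 0.66, that of the members to 1.28, and 17 members were past 4-fold higher and 1 lower, against 13.6% and 4.77% of all genes. With the values centred on the median of all genes of the day, the members' median was 0.71, and 8 were past 4-fold higher and 2 lower, against 6.86% and 11% of all genes.

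**Figure D1:**
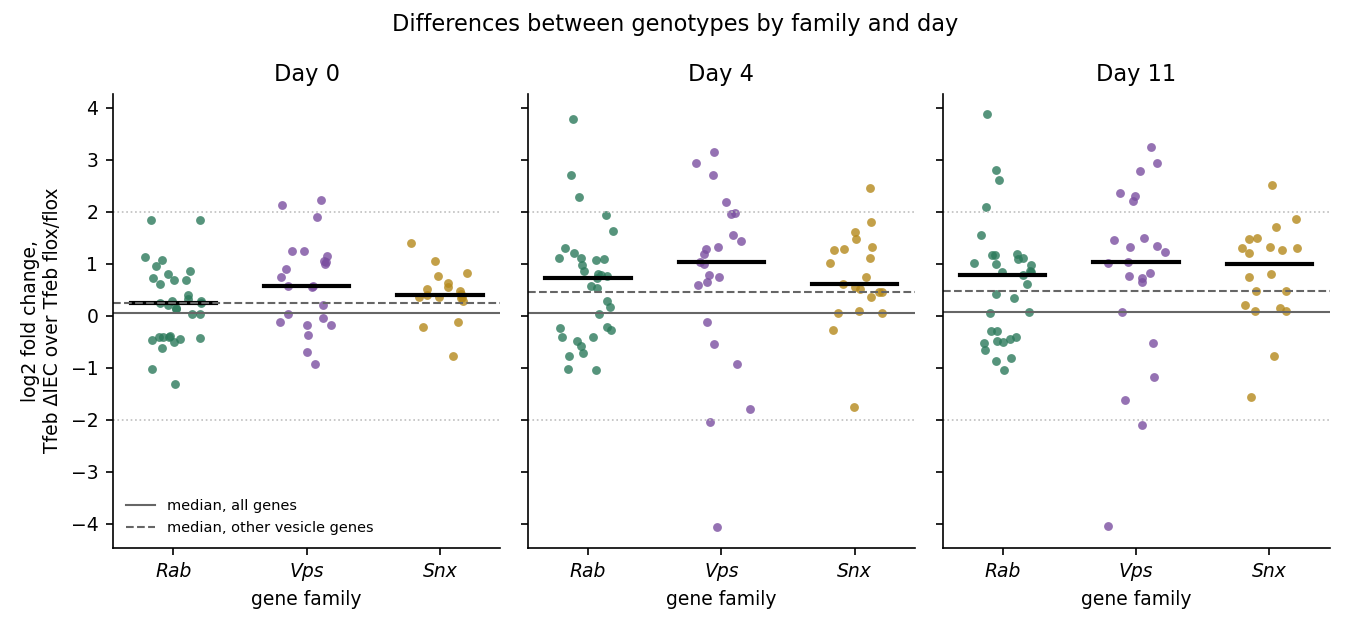
Log2 fold change (ΔIEC over flox/flox, vertical axis) of each member that reached 1 FPKM, by family and day, 1 point per gene. Black bars are family medians (0.73, 1.03 and 0.62 on Day 4 for *Rab*, *Vps* and *Snx*), the solid grey line is the median of all genes (0.06), the dashed line that of the other vesicle genes (0.45), and dotted lines mark 4-fold. Most points lie above the solid line on Day 4, with *Vps36* alone near −4.

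The order of the 3 families depends on the scale. The log2 fold changes of the *Vps* genes had medians of 0.58 on Day 0, 1.03 on Day 4 and 1.04 on Day 11, and spanned −4.07 to 3.15 on Day 4. *Rab* genes had medians of 0.25, 0.73 and 0.79, and 11 of 33 lay below 0 on each of the 3 days. Of all genes, 4724 of 9993, 4563 of 9371 and 4523 of 9365 lay below 0 on those days. *Snx* genes had medians of 0.40, 0.62 and 1.0, and 19 of 21 lay above 0 on Day 4 (4808 of all 9371 genes did). After division by the sum, the Day 4 medians of *Rab*, *Vps* and *Snx* were 1.19, 1.31 and 1.34. With the length trend subtracted they were 0.45, 0.59 and 0.72, so *Snx* led on these 2 scales. *Vps* led under the other settings tried on Day 4. Its median was 1.79 with a pseudocount of 0.1, and 0.36 against 0.35 for *Snx* with a pseudocount of 5. Median transcripts were 1758, 3199 and 2073 nt. Detection differed as well. Of the 59 *Rab* genes, 11 were at 0 in all 6 groups and 35 reached 1 FPKM in any of them, whereas 24 of 31 *Vps* and 21 of 30 *Snx* genes did. In all, 12 members were at 0 throughout, 28 were above 0 but never at 1 FPKM, and 80 reached 1 FPKM in at least 1 group. *Rab* proteins include many forms made in neurons or blood cells, while the *Vps* complexes are used by nearly all cells.

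**Figure D2:**
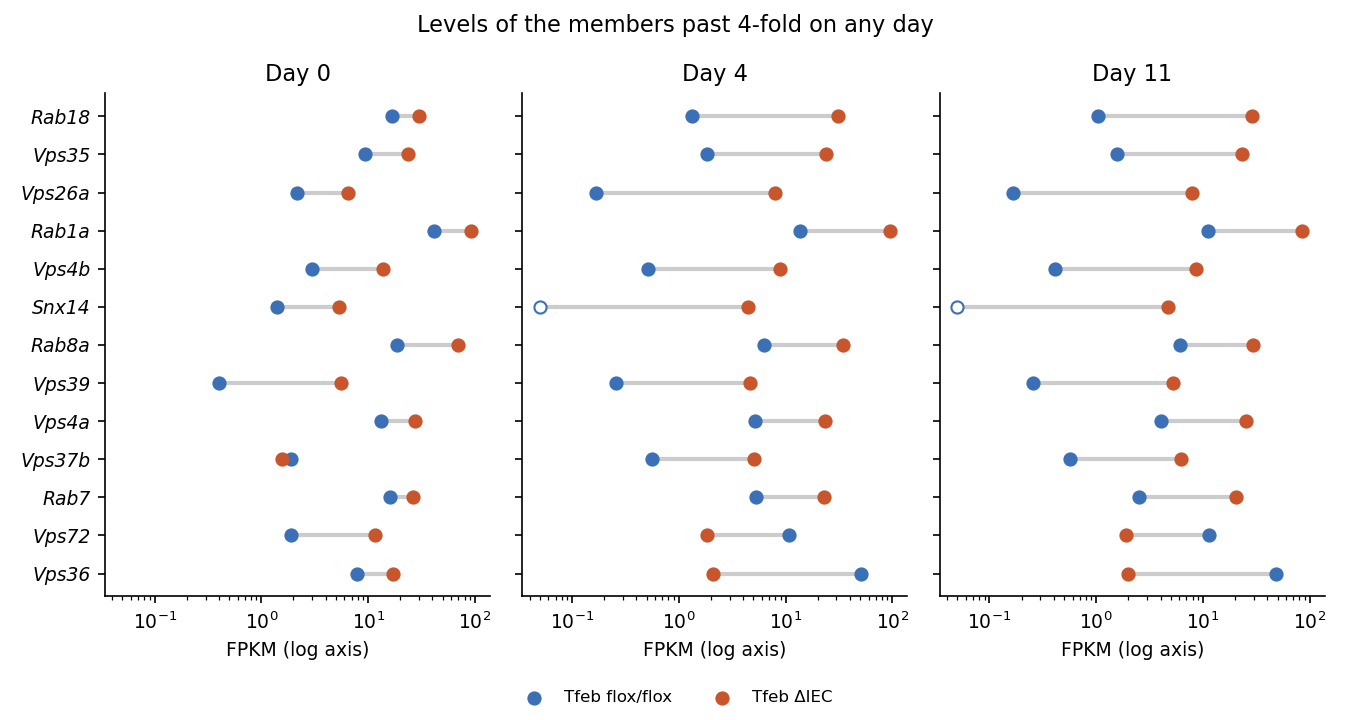
FPKM (horizontal log axis) of the 13 members past 4-fold on any day in flox/flox (blue) and ΔIEC cells (orange), 1 pooled value per genotype and day, with grey lines joining the genotypes. Open circles at the left edge are values of 0 (*Snx14* in flox/flox cells), drawn at 0.05 because a log axis has no 0. *Vps36* and *Vps72* have orange to the right on Day 0 and blue to the right on Days 4 and 11.

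Retromer is built around *Vps35*, a long scaffold whose ends hold VPS26 and VPS29. *Vps35* (ENSMUSG00000031696.8, chr8:85260392-85299802, minus strand, GRCm38 as in GENCODE M21) was at 9.42 FPKM in flox/flox and 23.5 in ΔIEC cells on Day 0, at 1.84 and 24.1 on Day 4, and at 1.56 and 23.2 on Day 11. The ΔIEC values barely differed between days, the flox/flox values were low on Days 4 and 11, and the genotypes were 2.50-fold apart on Day 0 and 13.1-fold on Day 4. *Vps26a* (ENSMUSG00000020078.15, chr10:62455235-62486805, minus strand), the more widely expressed of the VPS26 genes, was at 2.18 and 6.50 FPKM on Day 0, at 0.166 and 7.94 on Day 4, and at 0.166 and 7.92 on Day 11. Its flox/flox value on Day 4 stood for about 1 fragment, so the 48.0-fold ratio has a counting interval of 6.0 to 1382. For *Vps35*, with about 11 and 292 fragments, the interval was 7.01 to 25.8.

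The fragment numbers are estimates from the FPKM steps of single-transcript genes. On Day 0, 93.4% and 94.9% of low values fell within 10% of a whole step, but on Day 4 only 62.7% and 52.3% did, so they are approximate. The intervals are 95% intervals of the ratio of fragments, cover counting error only, and leave out variation between animals and copies made by PCR.

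The other retromer core genes did not share that size. *Vps26b*, the paralogue of *Vps26a*, was at 0.814 and 2.06 FPKM on Day 0 and at 0.378 and 1.15 on Day 4, a log2 fold change of 0.64 on Day 4 and 0.05 once the trend with transcript length was subtracted. *Vps29* (ENSMUSG00000029462.18, chr5:122354369-122364984) encodes the subunit at the far end of VPS35. It was at 31.9 FPKM in flox/flox and 16.4 in ΔIEC cells on Day 0, at 26.1 and 13.4 on Day 4, and at 27.6 and 11.6 on Day 11. *Vps29* was thus lower in ΔIEC cells on all 3 days, by 0.92 on the log2 scale on Day 4, though by 0.14 with the length trend subtracted and by 0.13 after division by the sum. Its median transcript is 867 nt, against 3474 nt for *Vps35* and 2654 nt for *Vps26a*, and its deposited locus takes in 17918 nt beyond the gene. Over the 4 core genes the median log2 fold change was 1.0 on Day 0 and 1.79 on Day 4, or 1.14 on Day 4 with the length trend subtracted, and 2 of the 4 reached 1 FPKM in 1 genotype only.

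The sorting nexins that work with retromer had smaller differences. SNX1 and SNX2 pair with SNX5 and SNX6 to form the membrane-bending coat. *Snx1* was at 15.9 and 21.4 FPKM on Day 0 and at 7.35 and 19.3 on Day 4. *Snx2* was at 5.75 and 8.58 FPKM on Day 0 and at 0.836 and 4.6 on Day 4, where its flox/flox value stood for about 3 fragments. *Snx5* was at 19.4 and 25.1 FPKM on Day 0 and at 6.30 and 10.2 on Day 4, and *Snx6* at 9.41 and 12.3 and then 4.22 and 10.3. All 4 had higher values in ΔIEC cells on both days, with log2 fold changes of 0.36 to 0.51 on Day 0 and 0.62 to 1.61 on Day 4, *Snx5* being at 0.02 with the length trend subtracted. *Snx3*, which recruits retromer on its own, was at 98.0 and 89.7 FPKM on Day 0 and at 58.7 and 86.5 on Day 4. *Snx27*, which links retromer to cargo with a PDZ-binding tail, was at 1.37 and 0.969 FPKM on Day 4, a log2 fold change of −0.27 that became 0.17 after division by the sum. On Day 11 it was at 1.36 and 0.373 FPKM, lower in ΔIEC cells at −0.78 and, after division by the sum, at −0.41. Over the core and its nexins, 10 genes on Day 4, the median was 0.88 as deposited and 0.87 with the length trend subtracted.

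**Figure D3:**
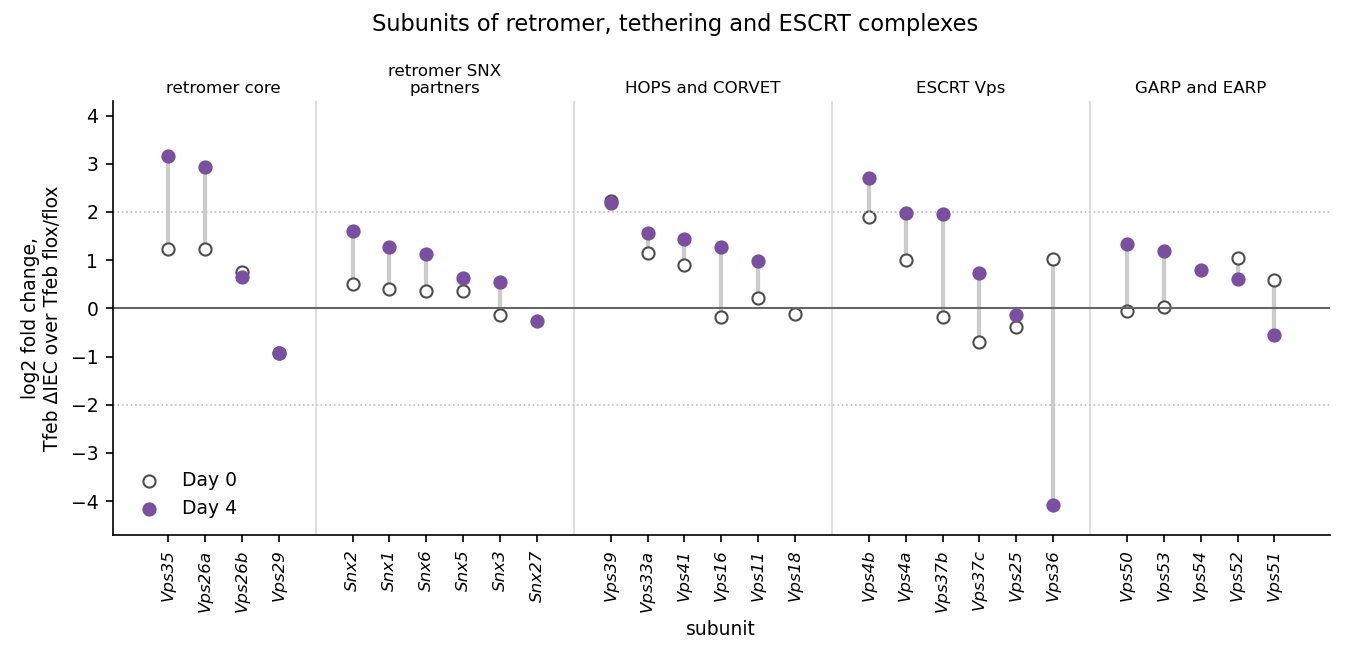
Log2 fold change (ΔIEC over flox/flox, vertical axis) of each subunit that reached 1 FPKM, on Day 0 (open circles) and Day 4 (filled circles), grouped by complex. A grey bar joins the days of 1 gene, and dotted lines mark 4-fold. *Vps35* and *Vps26a* stand at 3.15 and 2.94 on Day 4, *Vps29* at −0.92 on both days, and *Vps36* runs from 1.03 to −4.07.

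HOPS and CORVET share VPS11, VPS16, VPS18 and VPS33A, with VPS39 and VPS41 added in HOPS. *Vps39* (ENSMUSG00000027291.15, chr2:120316461-120353137) was the only member past 4-fold higher on all 3 days as deposited, at 0.398 and 5.58 FPKM on Day 0, 0.258 and 4.69 on Day 4, and 0.255 and 5.21 on Day 11. Its flox/flox values stood for about 4, 2 and 2 fragments, and the Day 4 ratio of 18.2 has a counting interval of 4.61 to 145. With the length trend subtracted its Day 4 difference was 1.64, under the 4-fold line. *Vps33a* was at 2.91 and 7.68 FPKM on Day 0 and at 1.59 and 6.63 on Day 4. *Vps41* was at 1.66 and 3.97 FPKM on Day 0 and at 0.658 and 3.51 on Day 4. *Vps16* and *Vps11* were near equal on Day 0 (log2 fold changes of −0.17 and 0.21) and higher in ΔIEC cells on Day 4 (1.28 and 0.99), where *Vps16* went from 3.06 to 8.85 FPKM between genotypes and *Vps11* from 0.380 to 1.75. *Vps18* was at 1.21 and 1.03 FPKM on Day 0 and under 1 FPKM on Day 4. The 5 genes that reached 1 FPKM on Day 4 were all above 0, with a median of 1.44, or 0.81 with the length trend subtracted.

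ESCRT spanned the widest range of these complexes on Day 4, from −4.07 to 2.70. VPS4A and VPS4B are the ATPases that take the ESCRT coat apart. *Vps4b* (ENSMUSG00000009907.17, chr1:106764071-106796728) was at 3.0 and 13.9 FPKM on Day 0, at 0.513 and 8.85 on Day 4, and at 0.407 and 8.66 on Day 11. *Vps4a* was at 13.3 and 27.6 FPKM on Day 0 and at 5.22 and 23.4 on Day 4, and its deposited locus takes in 10934 nt of other sequence. Both ATPases were higher in ΔIEC cells on each day. Of the ESCRT-I subunits, *Vps37b* was at 1.91 and 1.57 FPKM on Day 0 and at 0.562 and 5.04 on Day 4, where flox/flox rested on about 2 fragments, and *Vps37c* at 3.92 and 2.04 and then 1.58 and 3.31. *Vps37c* had log2 fold changes of −0.70 on Day 0 and 0.74 on Day 4, the latter 0.02 with the length trend subtracted.

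ESCRT-II is made of VPS36, VPS25 and SNF8. Of 23 *Vps* genes, 6 were below 0 on Day 4 (4563 of all 9371 genes were). Among them, *Vps36* (ENSMUSG00000031479.8, chr8:22192809-22220843) had the lowest Day 4 log2 fold change of all members. It was at 7.82 FPKM in flox/flox and 17.0 in ΔIEC cells on Day 0, at 50.9 and 2.10 on Day 4, and at 48.4 and 1.98 on Day 11. The flox/flox value was 24.2-fold the ΔIEC value on Day 4, with about 304 and 26 fragments and a counting interval of 16.3 to 38.0. The deposited locus of *Vps36* does not reach beyond the gene, and the direction was the same under every scale tried. *Vps25* was at 34.5 and 26.2 FPKM on Day 0 and at 40.1 and 36.7 on Day 4, a log2 fold change of −0.13 that became 0.69 after division by the sum. *Snf8*, which carries another kind of name, was at 2.71 and 1.31 FPKM on Day 0 and at 9.18 and 0 on Day 4.

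GARP and its endosomal form EARP share VPS51, VPS52 and VPS53, with VPS54 in the one and VPS50 in the other. *Vps53* was at 13.7 and 14 FPKM on Day 0 and at 7.53 and 18.4 on Day 4, and *Vps50* at 3.28 and 3.13 and then 0.659 and 3.18. *Vps52* had a log2 fold change of 1.05 on Day 0 and 0.60 on Day 4, and *Vps54* one of 0.79 on Day 4. With the length trend subtracted, the Day 4 values of *Vps52* and *Vps54* were 0.01 and 0.23. *Vps51*, at 6.95 and 10.9 FPKM on Day 0 and 11.4 and 7.44 on Day 4, passed from 0.58 to −0.55, the latter becoming 0.20 after division by the sum. No GARP gene was past 4-fold on any day.

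*Vps72* (ENSMUSG00000008958.14, chr3:95111022-95123051) matched the naming rule, but its protein is known as a histone chaperone subunit of chromatin remodelling complexes rather than a vesicle protein. It was at 1.90 and 11.7 FPKM on Day 0, at 10.7 and 1.84 on Day 4, and at 11.4 and 1.90 on Day 11, about 6, 38, 24 and 9 fragments on the first 2 days. Its genotypes were ordered one way on Day 0 and the other way on Days 4 and 11. *Vps13d*, named after its values were seen, showed the same order, at 1.21 and 2.31 FPKM on Day 0 and 4.1 and 0.478 on Day 4, where its flox/flox value was 8.58-fold the ΔIEC value, against 5.84-fold for *Vps72*. It encodes a lipid transfer protein, and its transcripts have a median of 15757 nt.

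The E-box letters were searched in RefSeq promoters (GRCm38.p6, 250 bases before to 50 after each annotated start), of which 113 belonged to 91 of the 120 members. CACGTG, which reads the same on both strands, occurred in 14 of the 113 member promoters (12.4%) and in 7.15% of all 32851 promoters. The longer TCACGTGA, also its own reverse complement and always holding the shorter motif, occurred in 7 (6.19%) against 0.974% of all. By gene these were 6 of 91 members (6.59%) against 1.12% of 27025 genes. The 6 were *Vps16*, *Vps33a*, *Vps26a*, *Rab21*, *Rab24* and *Rab5a*. The stretches of 3 of them that lie before the start are shown because they hold the longer letters, 5′ to 3′ on the strand of the gene, with the motif in capitals, from chr2:130424261-130424319, chr10:62486941-62487028 and chr17:53479098-53479185.
Vps16: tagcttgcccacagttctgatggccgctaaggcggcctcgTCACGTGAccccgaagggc
Vps26a: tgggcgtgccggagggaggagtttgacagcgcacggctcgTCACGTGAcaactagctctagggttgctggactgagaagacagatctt
Rab5a: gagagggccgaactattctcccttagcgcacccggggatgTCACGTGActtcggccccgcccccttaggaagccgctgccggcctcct
A match is a string of letters and was not tested for binding. The Day 4 log2 fold changes of *Vps26a*, *Vps33a*, *Vps16*, *Rab5a* and *Rab24* were 2.94, 1.56, 1.28, 0.73 and 0.29, against a median of 0.77 for the members. *Vps26a* has 2 annotated starts that both hold the motif, and of the 6 genes only *Rab21* was too low to be compared. *Rab5a*, a GTPase of early endosomes, was at 1.91 and 2.16 FPKM on Day 0 and 1.01 and 2.33 on Day 4. *Rab24* and *Rab21* are named for the motif alone. *Rab24* was at 0.686 and 1.06 FPKM on Day 4, and *Rab21* did not reach 1 FPKM in any group.

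The 3 *Rab* genes past 4-fold on Day 4 act in or near the secretory route. *Rab18* (ENSMUSG00000073639.5, chr18:6733905-6794429), a GTPase of the endoplasmic reticulum and lipid droplets, was at 16.8 and 30.1 FPKM on Day 0, at 1.34 and 31.2 on Day 4, and at 1.05 and 29.0 on Day 11. ΔIEC values thus lay between 29.0 and 31.2 on all days, while flox/flox went from 16.8 to about 2 fragments' worth on Days 4 and 11. Its Day 4 ratio of 23.4 has a counting interval of 7.52 to 232, and its log2 fold change was 3.78 as deposited, 4.01 with the length trend subtracted and 4.35 after division by the sum, the highest of all members on each scale. *Rab1a* (ENSMUSG00000020149.17, chr11:20201432-20226856), which carries cargo from the endoplasmic reticulum to the Golgi, was at 41.1 and 91.1 FPKM on Day 0, 13.6 and 94.9 on Day 4, and 11.2 and 84.3 on Day 11. Its Day 4 ratio of 6.97, from about 59 and 859 fragments, has a counting interval of 5.36 to 9.25. *Rab8a* (ENSMUSG00000003037.16, chr8:72161200-72183904), which brings cargo from the Golgi to the apical surface of enterocytes, was at 18.6 and 69.0 FPKM on Day 0, 6.30 and 34.5 on Day 4, and 6.13 and 29.5 on Day 11. Its ΔIEC value on Day 4 was below that of Day 0, unlike those of *Rab18* and *Rab1a*.

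*Rab7*, the GTPase of late endosomes and lysosomes that works with HOPS, was at 15.9 and 26.3 FPKM on Day 0, 5.34 and 23.1 on Day 4, and 2.50 and 20.4 on Day 11. Its deposited locus takes in 18685 nt beyond the gene. *Rab13*, a GTPase of tight junction traffic, was listed at 0 in flox/flox cells on all 3 days and at 2.58, 2.10 and 1.95 FPKM in ΔIEC cells, about 7 to 8 fragments on Days 0 and 4.

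*Rab11a*, *Rab25* and *Rab14*, among the most abundant members, stayed under 4-fold on each day as deposited. *Rab11a*, the GTPase of apical recycling endosomes, had the highest mean of all members. It was at 303 and 227 FPKM on Day 0, 572 and 487 on Day 4, and 556 and 454 on Day 11. Its Day 4 log2 fold change of −0.23 became 0.60 after division by the sum and 0.96 with the length trend subtracted, so its direction rests on the scale. *Rab25*, its epithelial relative, was at 164 and 123 FPKM on Day 0 and 277 and 136 on Day 4. It was lower in ΔIEC cells on every scale, with Day 4 log2 fold changes of −1.02 as deposited, −0.51 with the length trend subtracted and −0.19 after division by the sum. *Rab14*, of the Golgi and early endosomes, was at 68.2 and 44.1 FPKM on Day 0 and 58.6 and 50.2 on Day 4, a log2 fold change of −0.22 that became 0.60 after division by the sum.

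Close relatives often differed in size. *Rab1b*, with the same role as *Rab1a*, was at 22.9 and 30.5 FPKM on Day 0 and 16.3 and 28.5 on Day 4, a log2 fold change of 0.77 where *Rab1a* had 2.71. The gap narrowed with the length trend subtracted, to 1.83 and 2.00, since *Rab1b* has a median transcript of 757 nt and *Rab1a* one of 2642 nt. *Rab11b* was at 3.57 and 2.29 FPKM on Day 0 and 2.78 and 5.59 on Day 4, from −0.47 to 0.80, the latter 0.14 with the length trend subtracted. Of the early endosome GTPases, *Rab5a*, *Rab5b* and *Rab5c* had Day 4 log2 fold changes of 0.73, 0.87 and 0.16. With the length trend subtracted these were 0.15, 0.22 and −0.30, and after division by the sum 1.19, 1.23 and 0.91. *Rab5c*, the most abundant, was at 9.51 and 10.7 FPKM on Day 4. *Rab11b*, *Rab5b* and *Rab5c* were named after their values were seen.

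Among the other sorting nexins, *Snx14* (ENSMUSG00000032422.17, chr9:88376750-88438958), which tethers the endoplasmic reticulum to lipid droplets, was at 1.39 and 5.32 FPKM on Day 0. It was listed at 0 in flox/flox cells on Days 4 and 11, against 4.46 and 4.72 FPKM in ΔIEC cells, about 47 and 39 fragments, and its deposited locus takes in 43616 nt beyond the gene. *Snx17*, which retrieves integrins and lipoprotein receptors through retriever rather than retromer, was at 17.7 and 24.9 FPKM on Day 0 and 15.1 and 25.8 on Day 4. *Snx4* and *Snx7*, named after their values were seen, form recycling coats and were at 0.971 and 5.89 FPKM and at 2.37 and 8.44 FPKM on Day 4. *Snx21*, named after its values were seen, was the 1 nexin past 2-fold lower, at 4.69 and 0.678 FPKM on Day 4, a log2 fold change of −1.76.

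A comparison of Day 4 with Day 0 within each genotype, chosen after the data were seen, sets the days side by side. The tables of the days were scaled separately and come from different animals. Levels across days are therefore given as deposited, and which genotype changed cannot be settled from them. In flox/flox cells the members' median of log2((Day 4 + 1)/(Day 0 + 1)) was −0.54 over 68 genes, against −0.20 for all genes. In ΔIEC cells it was −0.12 over 79 genes, with all genes again at −0.20. The other vesicle genes described further on were close to the members, at −0.44 and −0.15. The medians of *Rab*, *Vps* and *Snx* genes were −0.32, −0.77 and −0.77 in flox/flox and −0.09, −0.13 and −0.10 in ΔIEC cells. For retromer and its nexins they were −1.02 and −0.23. Past 4-fold, *Vps36* and *Vps72* were higher on Day 4 in flox/flox cells (4.41% of all genes were) and *Rab18* was lower (5.53% of all genes were). In ΔIEC cells no member was past 4-fold higher (2.00% of all genes were), and *Vps36* and *Vps72* were lower (2.31% of all genes were). For *Rab18*, *Vps35* and *Vps26a* the flox/flox values were −2.93, −1.88 and −1.45, and the ΔIEC values 0.05, 0.03 and 0.25. The genotypes already differed in these 3 genes on Day 0, by log2 fold changes of 0.80, 1.24 and 1.24. The Day 4 flox/flox value of *Vps26a* stood for about 1 fragment.

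**Figure D4:**
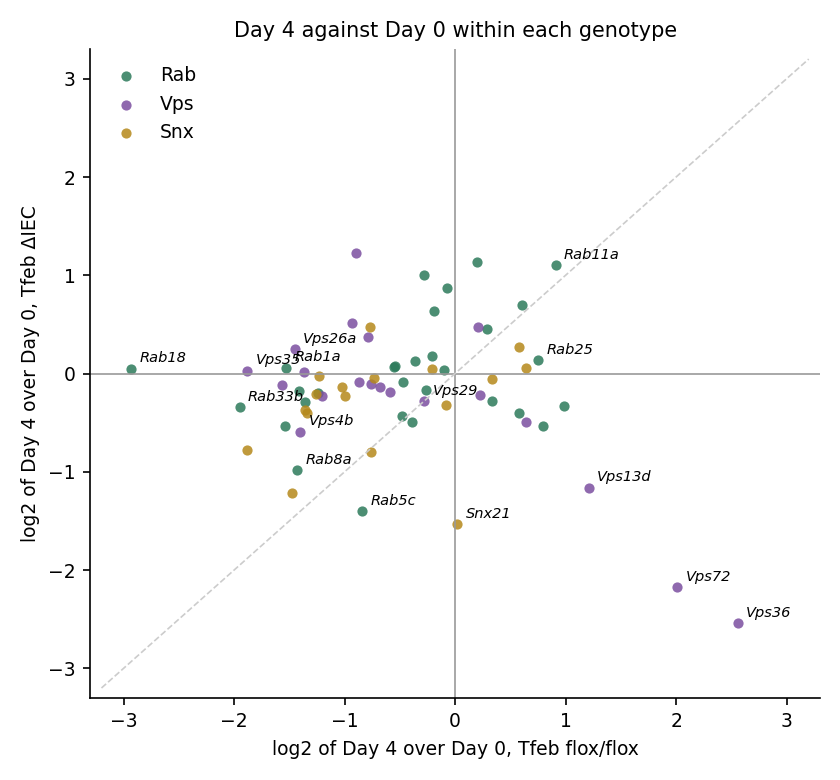
Log2 of Day 4 over Day 0 (FPKM + 1) in flox/flox cells (horizontal) and ΔIEC cells (vertical), 1 point per member that reached 1 FPKM in both genotypes, coloured by family, with equal change on the dashed line. Many points lie left of 0 and near the horizontal axis, with *Rab18* at −2.93 in flox/flox cells, and *Vps36* stands at the lower right, at 2.56.

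Transcript length moved with the differences. On Day 4 the median log2 fold change of all genes was −1.89 among the shortest of 10 equal classes of length (38 to 485 nt) and 0.65 in the class of 2828 to 3482 nt. No member fell in the shortest class, and the members' median transcript was 2288 nt, against 1894 nt for all genes. With the running median over length subtracted, the members' median log2 fold change on Day 4 was 0.58, and 5 were past 4-fold higher (6.49% of members, 7.64% of all genes). Those 5 were *Rab18*, *Vps35*, *Vps26a*, *Vps4b* and *Rab1a*. Within each class of length that held members, their median lay above that of all genes, at 0.86 against 0.54 in the class of 1895 to 2324 nt and at 1.20 against 0.65 in that of 2828 to 3482 nt. The part of RNA quality or library preparation in this trend was not tested.

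**Figure D5:**
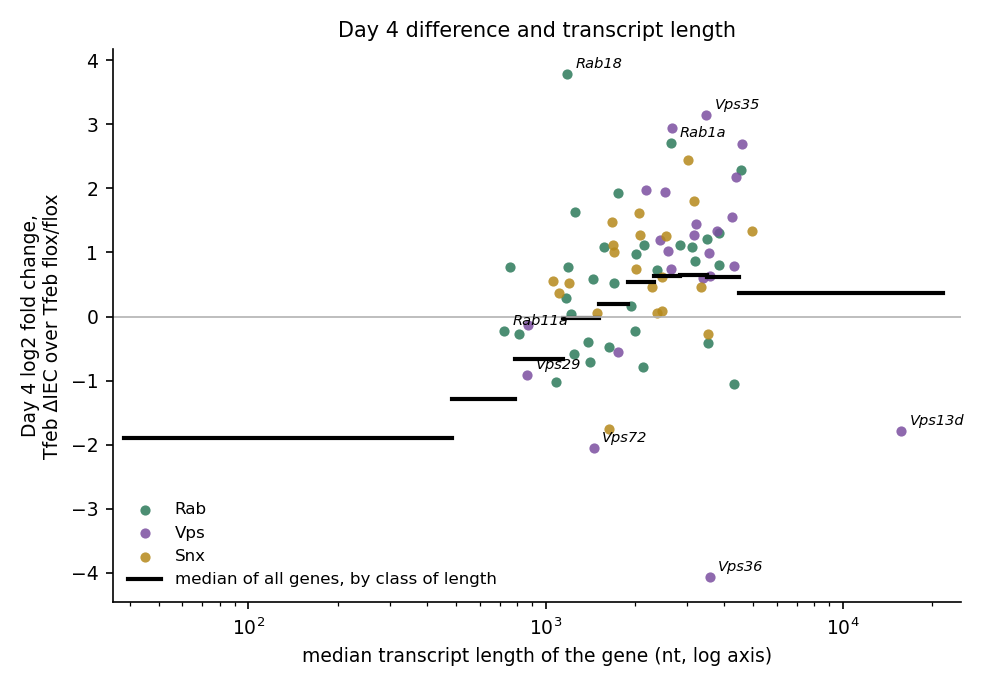
Day 4 log2 fold change (vertical) of each member against the median transcript length of the gene (horizontal log axis, nt), coloured by family. Black bars are the medians of all genes in 10 classes of length with equal numbers of genes, from −1.89 at the left to 0.65 and then 0.37 at the right. *Rab18*, *Vps35* and *Rab1a* lie far above the bars of their length and *Vps36* far below.

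Other vesicle genes, 306 genes in 13 lists chosen for their roles, gave the comparison. On Day 4, 214 of them reached 1 FPKM, the median of their log2 fold changes was 0.45, and 25 were past 4-fold higher (11.7%) and 6 lower (2.80%). By these counts they were past 4-fold higher about as often as the members (10.4%). With the length trend subtracted their median was −0.01, against 0.58 for the members. On Day 0 the medians were 0.25 as deposited and 0.00 with the trend subtracted, against 0.36 and 0.22 for the members. No test over samples can be made of this difference.

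The lists differed among themselves. The COPI coat, which returns vesicles from the Golgi, had a median of 2.02 on Day 4, above that of retromer, with 5 of 9 genes past 4-fold higher, led by *Arcn1* (3.49 and 14 FPKM on Day 0, 0.559 and 11.7 on Day 4), while *Copz2* was at −2.27. Partners of the 3 families were mixed. Of the genes with non-Vps names in ESCRT, 4 of 18 were past 4-fold higher and 1 lower, *Ist1* being highest at 2.95 and *Snf8* lowest at −3.35. In the WASH complex, which builds actin on retromer domains, *Fam21* was at 1.84 and *Ccdc53* at −1.49. In retriever and the CCC complex the median was 0.19, with *Commd8* at 2.25 and *Commd1* at −1.66. Among the 9 retromer cargo receptors, which were counted apart from the 306, *M6pr* was at 3.26 and 27.4 FPKM on Day 4 (2.74) and *Igf2r* at 12.5 and 0.706 (−2.99), and both encode mannose 6-phosphate receptors.

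On Day 4 the SM proteins, the WASH complex and the PI3-kinase complex had medians of 1.23, 1.08 and 0.99, above the members' 0.77, over 5, 3 and 4 genes. With the length trend subtracted, the COPI coat (1.43) and the SM proteins (0.62) lay above the members' 0.58, the PI3-kinase complex was at 0.57, and the Rab regulators (−0.27) and Rab effectors (−0.28) were lowest. The regulators had a median of 0.41 as deposited. *Gdi2*, which extracts Rab proteins from membranes, had the highest value of all the lists at 4.01, from 4.18 to 82.7 FPKM between genotypes on Day 4 and 48.0 to 87.2 on Day 0, and *Dennd3* the lowest of its list at −1.92. Rab effectors had a median of 0.21, between *Micall2* at −1.23 and *Mical1* at 2.16. SNAREs, the fusion proteins, had a median of 0.26, between *Vamp8* at −1.96 and *Nsf*, the ATPase that recycles them, at 3.81. The remaining extremes were *Stxbp3* (2.28) and *Stxbp2* (−0.21) of the SM proteins, *Sec23a* (2.75) and *Sec24b* (−1.13) of COPII, and *Cltc* (2.16) and *Ap2s1* (−2.32) of clathrin and its adaptors. They were *Exoc1* (1.84) and *Golgb1* (−2.61) of the tethers, *Arl1* (2.64) and *Arl16* (−0.96) of the Arf and Arl GTPases, and *Pik3c3* (1.34) and *Uvrag* (−1.84) of the PI3-kinase complex.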

How the data were processed

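RNA-seq of colonic epithelial cells freed with DTT and EDTA was used, 12 samples in 6 groups of 2 animals, with groups taken from the sample labels. The authors made full-length cDNA by a SmartSeq2 variant, sequenced paired ends on a MiSeq, mapped to mm10 with TopHat2 2.0.14, and deposited FPKM from Cuffdiff 2.1.1, 1 pooled value per genotype in a table per day, scaled within that day. The annotation was not given in the sources used here. The tables also hold the authors' fold changes, test statistics and p and q values, which were not used. Their status column served for 1 alternative.

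Log2 fold changes with a pseudocount of 1 FPKM and a filter of 1 FPKM in either genotype were computed in Python 3.11.15 with numpy 2.4.6, pandas 2.3.3 and scipy 1.17.1, drawn with matplotlib 3.10.9, and the code was tested on simulated data. Coordinates and transcript lengths (47218 of 47632 genes, all 120 members) are from GENCODE M21. The length trend is a running median over 501 genes. About 0.272 to 0.568 FPKM at 1 kb stood for 1 fragment, by group, after 175 nt were taken from each length. Library totals were not given.

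Named members are those past 4-fold, the subunits of the complexes, the 10 with the highest mean FPKM, those at 0 in one genotype with at least 2 FPKM in the other, *Tfeb*, and the highest and lowest gene of each other list. *Rab5a*, *Rab21* and *Rab24* are named for a promoter motif, and other members outside these rules are marked as named after their values were seen. The members, lists and alternatives were chosen with earlier results of these data known. The libraries do not mark strand, so overlapping genes cannot be told apart. Besides the members marked above, others named here have deposited loci that reach beyond the gene. Among them are *Vps53*, *Rab5a* and *Vps37b* (70972, 31771 and 31013 nt), and *Vps51*, *Snx21* and *Snx5* (12734, 11066 and 10321 nt).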

Additional observations from a re-analysis of the deposited data

Results flagged for a closer look

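*Vps36* and *Vps72* were the members past 2-fold with the order of the genotypes turned between days. *Vps36* had a log2 fold change of 1.03 on Day 0 and −4.07 on Day 4. *Vps72* had one of 2.13 on Day 0 and −2.05 on Day 4. With 1 pooled value per genotype and day, the difference between days was not tested.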

How the results depend on the processing

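The tables hold 1 pooled value per genotype and day, scaled within each day. No paired analysis was possible because the replicate numbers belong to animals whose values were combined, and leaving out a replicate could not be run for the same reason. Low flox/flox values rest on a few fragments.

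On Days 0, 4 and 11 the members past 4-fold higher numbered 2, 8 and 11, and those lower 0, 2 and 2. With a pseudocount of 0.1 the higher members were 5, 22 and 22, with 4 lower on Day 4 and 4 on Day 11 (17.8% and 17.4% of all genes), and the Day 11 median was 1.18. Of all genes 8.86%, 18.6% and 18.9% were then higher, and of the members 6.76%, 28.6% and 28.9%. With a pseudocount of 5 they were 0, 3 and 3, with 1 lower on each of Days 4 and 11 (5.27% and 5.07% of all genes), and medians of 0.23, 0.33 and 0.35, with 0.280%, 2.48% and 2.61% of all genes higher. At 2-fold they were 14, 32 and 34 higher and 2, 6 and 6 lower, and at 8-fold 0, 2 and 2 higher (0.570%, 1.79% and 1.88% of all genes) and 1 lower on each of Days 4 and 11 (3.3% and 3.26%). Division by the sum gave 17 and 18 higher (13.6% and 13.7% of all genes) and 1 lower on Days 4 and 11 (4.77% and 4.74%), and medians of 1.28 and 1.36. Subtracting the length trend gave 1, 5 and 6 higher (3.48%, 7.64% and 7.77% of all genes) and a Day 0 median of 0.22, and turned the Day 4 median of the other vesicle genes to −0.01. With no filter the Day 4 median was 0.51. The cause of these moves was not tested. The members' median kept its positive sign under every setting on all 3 days. The other 57 counts and medians of the members stayed within 1.5 times the count or within the 95% interval of the median over genes, among them those with a filter of 5 FPKM, centring, the status column and the filter on the mean of the 6 values, which was chosen after seeing the data.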
